A study of Mus musculus with 8 samples.

Results

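Transcripts of 9 globin and erythroid genes were followed through 8 RNA-seq libraries of mouse cells sorted from embryoid bodies. The genes were chosen by symbol: the globins Hbb-bh1, Hbb-y, Hba-x, Hba-a1 and Hba-a2, the transcription factor genes Klf1 and Nfe2, the heme enzyme gene Alas2 and the receptor gene Epor. All 9 were found among the 34536 symbols of the count table, and all 9 passed the filter on low counts that 13817 symbols passed. An embryoid body is an aggregate of differentiating pluripotent stem cells. Cells were isolated by fluorescence-activated sorting. Libraries A, C, E and G are labelled endocardial, the lining of the heart, and libraries B, D, F and H endothelial, so n = 4 per group. No treatment, genotype or time is attached to either group, and the stem cell line, the day of culture and the surface markers of the sort were not found in the labels. Since the labels do not tie libraries to separate cultures, p-values measure the spread among these libraries alone, and part of it may be technical.

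The first red cells of a mouse embryo form in the blood islands of the yolk sac, beside the first endothelium, and carry hemoglobin built from embryonic globin chains. Hbb-bh1 and Hbb-y encode the embryonic beta-type chains and Hba-x the embryonic alpha-type (zeta) chain, while Hba-a1 and Hba-a2 encode the adult alpha chain, which primitive red cells also make. As primitive erythroblasts mature in the embryo, Hbb-bh1 is known to precede Hbb-y, and Hba-x to precede the adult alpha genes. Klf1 and the NF-E2 complex switch on globin genes, Alas2 begins heme synthesis in red cells, and the erythropoietin receptor keeps erythroid progenitors alive.

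Proximal promoters of 6 of the genes, from globins to the receptor, are shown here for the letters that erythroid factors are known to recognise. Capitals mark CACCC, the core of the box bound by Klf1, GATA preceded by A or T and followed by A or G on either strand (TTATCT, for example, is AGATAA read from the opposite strand), and a TATA-like TATAAA or CATAAA on the gene's own strand. The sequences are from RefSeq on GRCm38.p6, written 5' to 3' on the gene's strand, and include only bases that lie before the annotated exons, except for a 30-base site of Hba-x.
Hbb-y, chr7:103853217-103853357, minus strand: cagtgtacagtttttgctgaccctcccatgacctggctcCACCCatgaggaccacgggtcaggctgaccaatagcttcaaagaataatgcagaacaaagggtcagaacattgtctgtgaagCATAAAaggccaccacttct
Hba-x, chr11:32276488-32276517, plus strand: gctcTGATAAcaggctcCACCCtgcaagcc
Hba-a2, chr11:32296342-32296488, plus strand: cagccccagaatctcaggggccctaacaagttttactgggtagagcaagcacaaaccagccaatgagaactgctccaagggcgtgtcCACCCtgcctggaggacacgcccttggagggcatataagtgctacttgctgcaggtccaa
Klf1, chr8:84901832-84901927, plus strand: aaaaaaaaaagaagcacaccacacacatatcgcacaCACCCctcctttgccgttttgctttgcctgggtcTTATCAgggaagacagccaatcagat
Alas2, chrX:150547267-150547374, plus strand: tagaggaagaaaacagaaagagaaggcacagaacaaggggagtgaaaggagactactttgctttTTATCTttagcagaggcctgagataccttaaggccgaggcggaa
Epor, chr9:21963577-21963726, minus strand: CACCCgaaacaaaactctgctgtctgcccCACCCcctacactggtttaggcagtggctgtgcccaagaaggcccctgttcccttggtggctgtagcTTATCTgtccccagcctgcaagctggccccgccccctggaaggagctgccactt

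Of the 9 genes, 7 had an entry in the promoter table, and Hbb-bh1 and Nfe2 were not matched. In the 150 bases before the RefSeq start, CACCC on either strand lay in each of the 7 windows, against 37.4% of 32851 promoter windows of the same length. Hbb-y held it 111 bases before the start, Hba-x at 95, Hba-a1 at 60 and Hba-a2 at 63, and in Alas2 it lay on the opposite strand at 40, 35 and 30 bases, nearer to the start than the stretch shown. GATA letters lay in Hba-x, Klf1, Alas2 and Epor, against 16.0% of all windows, and in Hba-x they stood just before the CACCC box, at 108 bases. The NF-E2 core TGAGTCA lay in none of the 7 windows and in 2.84% of all windows. TATAAA or CATAAA lay in Hbb-y at 29 bases and in Hba-x at 28, against 8.11% of all windows. These are matches of letters and say nothing of binding in these cells.

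Transcripts of embryonic globins were measured in every library, and library B, labelled endothelial, held the most. Hbb-bh1, on chromosome 7 (GRCm38, 103841637 to 103843164, minus strand), was at 823 CPM in A, 257 in C, 479 in E and 413 in G of the endocardial group. CPM is the count scaled to a common library total. In the endothelial group it was at 1252 CPM in B, 152 in D, 141 in F and 239 in H. Library B was thus above all 4 endocardial libraries, while D, F and H were below all of them, so the groups overlapped through 1 library. The group means were 493.1 ± 239 CPM and 446 ± 539 (SD, n = 4 each). The log2 fold change, endocardial minus endothelial throughout, was 0.14 (SE 0.71) with an adjusted p of 0.959 by edgeR's quasi-likelihood test, and it was 1.49 (SE 0.37, adjusted p = 0.0696) without B. In bulk samples such as these, fewer cells of a type and less RNA per cell cannot be told apart.

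Hbb-y, the second embryonic beta-type gene (chromosome 7, 103851749 to 103853216, minus strand), was at 123 CPM in A, 7.64 in C, 23.9 in E and 12.5 in G. It was at 378 CPM in B, 10.7 in D, 16.5 in F and 22.7 in H. Libraries B and A stood far above the other 6, which lay between 7.64 and 23.9 CPM with the groups mixed. Its log2 fold change was -1.37 (SE 1.25, edgeR adjusted p = 0.701). It was 1.33 (adjusted p = 0.567) without B, -2.89 (adjusted p = 0.369) without A and -0.18 (adjusted p = 0.891) without both. Of the 9 genes Hbb-y spanned the widest range, 49.4-fold from its lowest to its highest library, where Hbb-bh1 spanned 8.89-fold.

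Hba-x, the embryonic alpha-type gene (chromosome 11, 32276400 to 32278116, plus strand), was at 235 CPM in A, 71.8 in C, 115 in E and 89.7 in G, and at 486 CPM in B, 49.1 in D, 42.1 in F and 70.8 in H. Its order over the libraries was that of Hbb-bh1, with B on top, A next and D and F at the bottom. A log2 fold change of -0.35 (SE 0.79, edgeR adjusted p = 0.901) became 1.26 (SE 0.40, adjusted p = 0.150) without B. On the scale of CPM per kb of transcript, which allows genes to be compared, Hbb-bh1 was at 230 to 2043, Hba-x at 52.6 to 607 and Hbb-y at 12.1 to 596 over the 8 libraries. Hbb-bh1 was the most abundant of the 5 globins on that scale in each library.

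The adult alpha genes moved with the embryonic ones. Hba-a1 (chromosome 11, 32283511 to 32284465, plus strand) was at 115 CPM in A, 19.4 in C, 38.0 in E and 23.7 in G, and at 161 in B, 8.62 in D, 17.4 in F and 21.2 in H. Hba-a2 (chromosome 11, 32296489 to 32297298, plus strand) was at 122 CPM in A, 21.4 in C, 55.8 in E and 29.2 in G, and at 199 in B, 15.2 in D, 20.4 in F and 17.9 in H. B was highest and A next for both. For Hba-a1 the endothelial library H was also above the endocardial library C. The log2 fold changes were -0.11 (SE 0.91, edgeR adjusted p = 0.978) for Hba-a1 and -0.16 (SE 0.90, edgeR adjusted p = 0.965) for Hba-a2. Without B they were 1.64 (adjusted p = 0.266) and 1.68 (adjusted p = 0.186). The split of reads between these neighbours is uncertain, since 91.0% of the 31-base words of the Hba-a2 transcript also occur in Hba-a1, and 71.3% of those of Hba-a1 in Hba-a2. Hbb-bh1, Hbb-y and Hba-x shared no such word with any other globin compared.

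**Figure D1:**
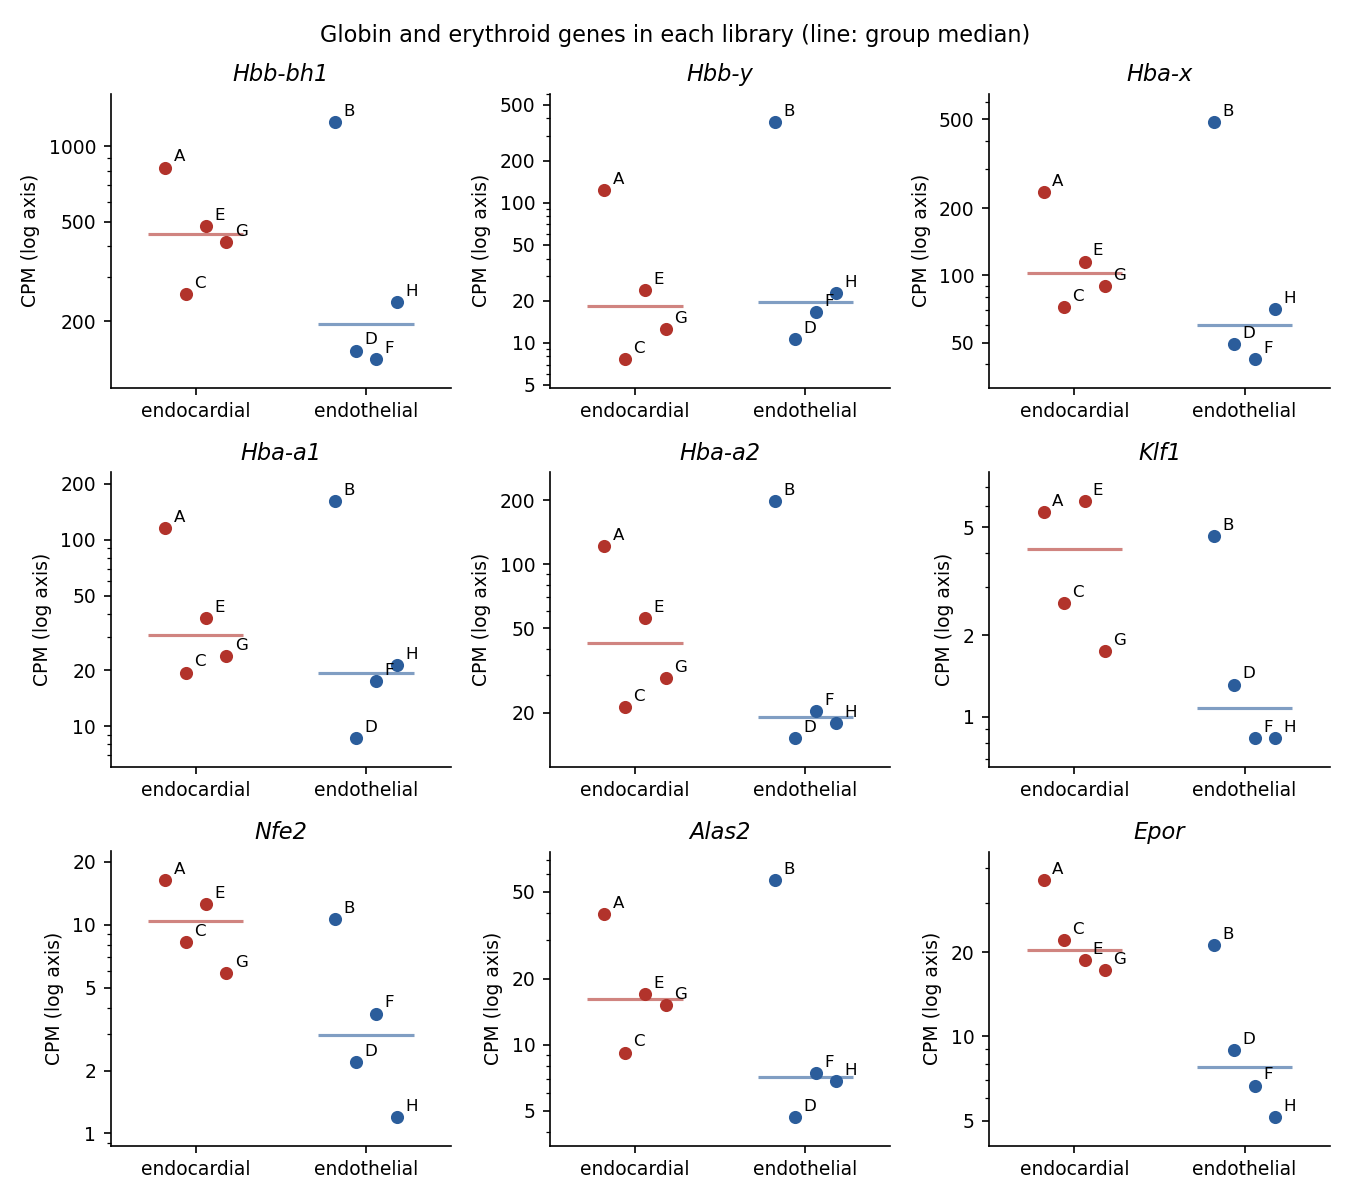
CPM of each of the 9 genes (log axis) in the 4 endocardial (red) and 4 endothelial (blue) libraries, each point a library with its letter and each line a group median. B is the highest library for the 5 globins and Alas2, at 1252 CPM for Hbb-bh1, A is the highest for Nfe2 and Epor, and D, F and H lie below all endocardial libraries for every gene but Hbb-y and Hba-a1.

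None of the 9 genes passed an adjusted p below 0.05 in either direction by edgeR, where 2.58% of all tested genes passed, 1.42% higher and 1.16% lower in the endocardial libraries. At an unadjusted p below 0.05 there was 1, Epor, as were 5.65% of tested genes in its direction. DESeq2, which gave no adjusted p for Hbb-y, Hba-x and Hba-a1, called 0 of the 9 and 6.25% of all genes. Limma with quality weights called 1, Epor, and 7.06% of all genes. Of the log2 fold changes 5 were positive and 4 negative, with a median of 0.07, where all tested genes had a median of 0.01. Without library B all 9 were positive, with a median of 1.68, and 2 were called higher, Nfe2 and Epor, where 1.64% of genes were. Without A only Klf1, Nfe2 and Epor were positive, with a median of -0.49. Without A and B together 8 were positive, with a median of 1.11, and 1 was called higher, Epor, where 1.09% of genes were. With all 8 libraries 0 of the 9 genes had every endocardial library above every endothelial one, as 4.42% of tested genes did. Leaving out B, 7 of the 9 had all 4 endocardial libraries above D, F and H, as 6.91% of tested genes did. The exceptions were Hbb-y and Hba-a1. Of the endothelial libraries B was highest for all 9 genes, so leaving it out raises their differences by construction. The 1.64% and 6.91% are over all genes, whatever their level in B, and are no matched background. In the edgeR fits the sign of the difference turned with B for Hbb-y, Hba-x, Hba-a1 and Hba-a2, while Klf1, Nfe2 and Epor were positive with and without it.

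**Figure D2:**
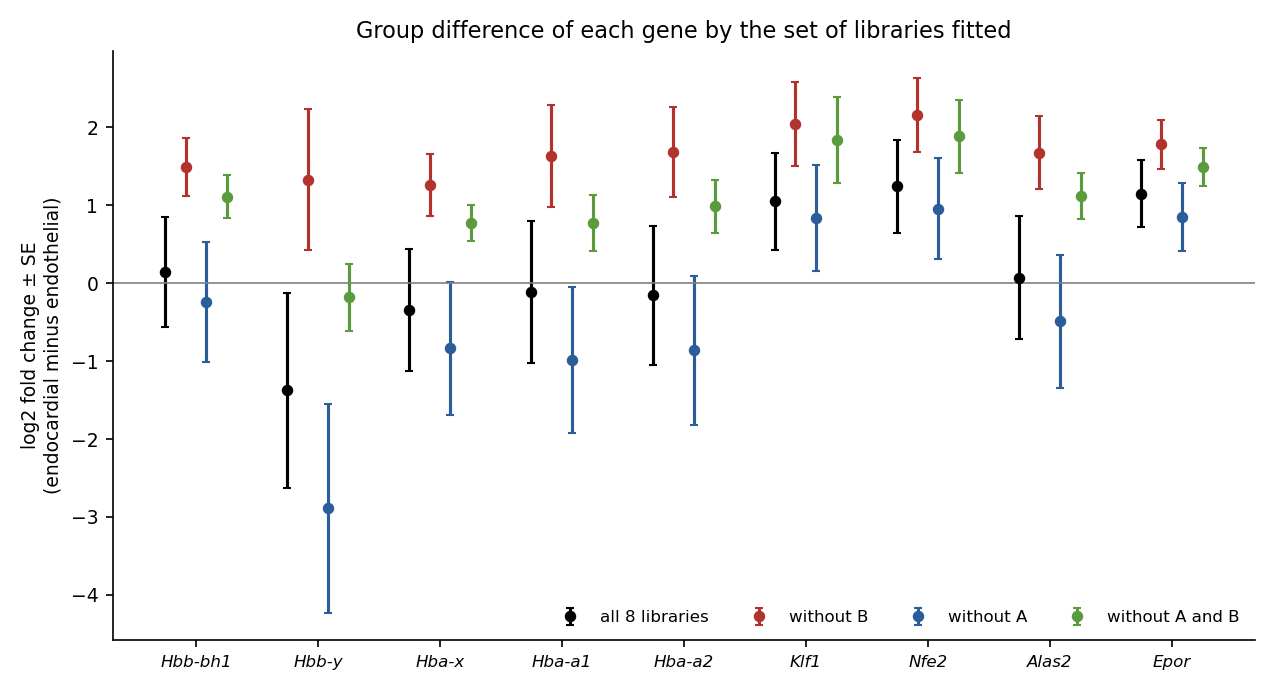
Log2 fold change with its SE (edgeR, endocardial minus endothelial) of each of the 9 genes, fitted with all 8 libraries (black), without B (red), without A (blue) and without A and B (green). Without B all 9 values are above 0, and for Hbb-y the value runs from -2.89 without A to 1.33 without B.

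The split of the globin counts into embryonic and adult genes varied far less between libraries than their amount. Counts on Hba and Hbb genes ranged from 1662 in D to 28840 in B, which was 0.0249% to 0.254% of all counts. The embryonic genes Hbb-bh1, Hbb-y and Hba-x together made up 79.7% of these counts in A, 86.9% in C, 83.8% in E and 88.7% in G, and 82.3% in B, 87.4% in D, 80.0% in F and 87.7% in H. The exact Clopper-Pearson 95% intervals, which cover counting error only, were widest in D (85.7% to 89.0%) and F (78.3% to 81.6%). The means of the groups were 84.8% ± 3.93 and 84.4% ± 3.82 (SD, n = 4 each), so the groups overlapped, and both held mainly embryonic globin transcripts. Counted per kb of transcript the means were 82.6% ± 4.34 and 81.2% ± 4.30. The globin-rich A and B were at 79.7% and 82.3% and the globin-poor D and F at 87.4% and 80.0%, so neither end of the globin range had a share of its own.

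Of embryonic, adult alpha and adult beta globins, adult beta was the smallest component. Hbb-bs and Hbb-bt, the adult beta genes of this annotation, took 1.23% to 3.60% of the globin counts, and the adult alpha genes 9.10% to 16.0%. Hbb-bs was at 49.1 CPM in A and 66.9 in B, and between 3.95 and 18.4 in the other 6 libraries, and Hbb-bt at 0.146 to 4.09 in all 8. Within the beta-type counts the embryonic genes held 94.6% to 98.2%, whereas Hba-x held 49.8% (A) to 67.3% (D) of the alpha-type counts. Adult chains thus made up a larger share of the alpha-type than of the beta-type counts in every library. Reads of Hbb-bs and Hbb-bt cannot be told apart with certainty, since 66.9% of the words of Hbb-bs occur in Hbb-bt. Mouse strains carry different sets of adult beta genes, and as the strain of the stem cells is not known here, the values of both stand for adult beta-globin reads of any set that were assigned to them. Of the other globin symbols, the pseudogene Hbb-bh0 was at 24.9 CPM in B and 9.68 in A and at no more than 2.90 elsewhere. Hbb-bh2, Hbq1a, Hbq1b and Hba-ps4 did not exceed 2.14 CPM in any library, and Hbb-bh3 had 0 counts in all 8, where 3 counts would be 0.268 to 0.438 CPM. The ratio of embryonic beta-type to alpha-type counts was 2.001 in A, 2.35 in C, 2.41 in E and 2.99 in G, and 1.93 in B, 2.24 in D, 1.97 in F and 2.38 in H. The groups overlapped, with means of 2.44 ± 0.408 and 2.13 ± 0.217 (SD, n = 4 each).

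Within the embryonic beta-type counts the balance of Hbb-y and Hbb-bh1 differed between libraries. Hbb-y made up 2.89% (95% interval 2.27% to 3.62%) in C, 4.74% (4.15% to 5.39%) in E and 2.93% (2.39% to 3.55%) in G, all endocardial. It made up 6.54% (5.16% to 8.15%) in D, 10.5% (8.97% to 12.1%) in F and 8.69% (7.54% to 9.95%) in H, all endothelial. The globin-rich libraries were higher still, at 13.0% (12.2% to 13.8%) in A and 23.2% (22.6% to 23.8%) in B. Of the endocardial libraries only A overlapped the endothelial range, though the counting intervals of D and E touched. In each group the library with the most globin also had the largest Hbb-y share. The group means were 5.89% ± 4.81 endocardial and 12.2% ± 7.47 endothelial (SD, n = 4 each), and 3.52% ± 1.06 and 8.57% ± 1.97 (n = 3 each) without A and B. These shares were computed from genes chosen with the data known, so they are given with no test.

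**Figure D3:**
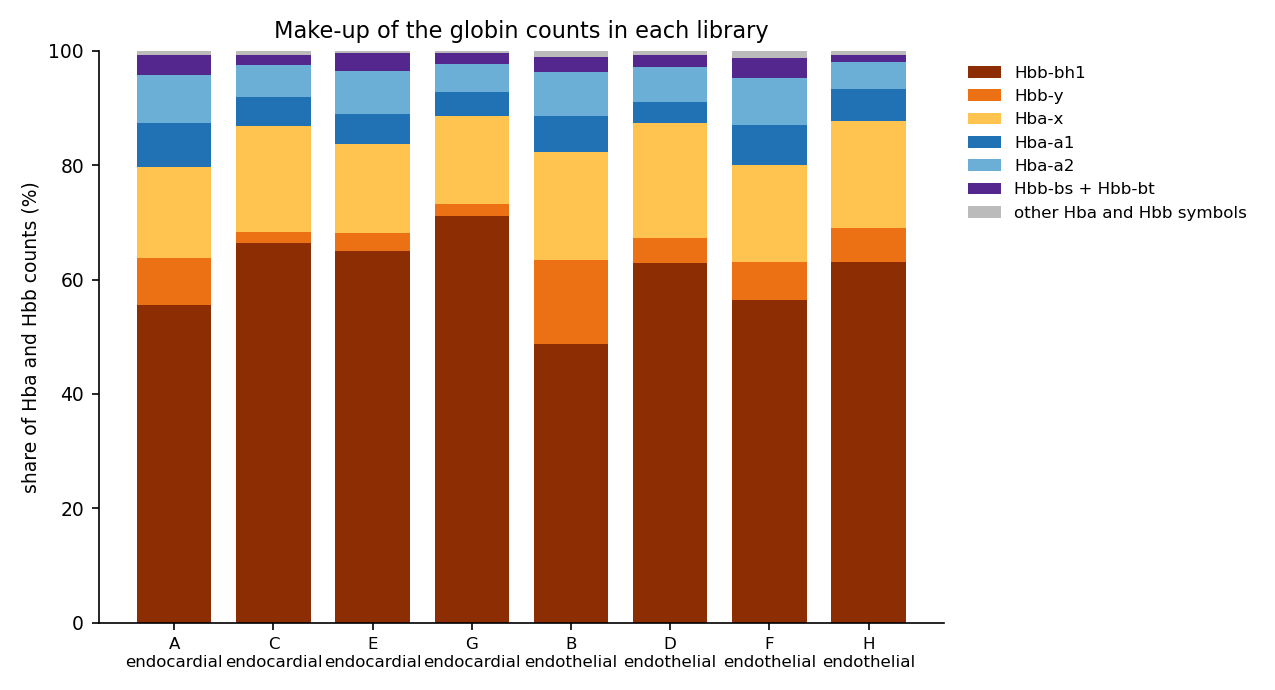
Share (%) of each globin in all Hba and Hbb counts, 1 bar per library, endocardial libraries on the left and endothelial on the right. The brown, orange and yellow embryonic genes fill 79.7% to 88.7% of every bar, and the orange Hbb-y segment is widest in B and A.

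Alas2, the red-cell form of the first enzyme of heme synthesis (chromosome X, 150547375 to 150570638, plus strand), followed the globins. It was at 39.5 CPM in A, 9.21 in C, 16.99 in E and 15.2 in G, and at 56.5 in B, 4.67 in D, 7.41 in F and 6.82 in H. B and A were highest, and D, F and H lay below all endocardial libraries. The log2 fold change was 0.07 (SE 0.79, edgeR adjusted p = 0.982), and 1.68 (SE 0.47, adjusted p = 0.102) without B. For each 100 counts on the 3 embryonic globins there were 2.05 (H) to 3.71 (F) counts on Alas2, a narrow range beside the 12.1-fold range of Alas2 itself.

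The regulators and the receptor had another order over the libraries. Klf1, a zinc finger activator of globin genes (chromosome 8, 84901928 to 84905291, plus strand), was low throughout, at 5.68 CPM in A, 2.62 in C, 6.24 in E and 1.75 in G, and at 4.64 in B, 1.31 in D, 0.834 in F and 0.837 in H. These are 44, 25, 58 and 14 counts and 52, 9, 8 and 7 counts. E was highest, and B was above 2 of the 4 endocardial libraries. Klf1 had a log2 fold change of 1.05 (SE 0.62, edgeR adjusted p = 0.510), and 2.04 (SE 0.54, adjusted p = 0.0747) without B.

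Nfe2, which encodes the larger subunit of NF-E2 (chromosome 15, 103248212 to 103258403, minus strand), was at 16.4 CPM in A, 8.27 in C, 12.6 in E and 5.86 in G. It was at 10.6 CPM in B, 2.19 in D, 3.76 in F and 1.20 in H. A was highest, and only B of the endothelial libraries reached into the endocardial range, as 14 of the 16 pairs of libraries had the endocardial one higher. The log2 fold change was 1.25 (SE 0.60, edgeR adjusted p = 0.393). Without B it was 2.16 (SE 0.48), 4.48-fold higher in the endocardial libraries, and passed the threshold (adjusted p = 0.0430), with an adjusted p of 0.0983 without A and B. Over the alternatives run its adjusted p was 0.0168, with neighbouring letters as a block, to 0.620.

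Epor, the erythropoietin receptor (chromosome 9, 21958897 to 21963506, minus strand), was at 36.3 CPM in A, 22.1 in C, 18.7 in E and 17.2 in G. It was at 21.2 CPM in B, 8.91 in D, 6.68 in F and 5.14 in H. D, F and H were below all endocardial libraries, and B lay among the latter. Epor had a log2 fold change of 1.15 (SE 0.43, edgeR unadjusted p = 0.0247, adjusted p = 0.242), with means of 23.6 ± 8.71 and 10.5 ± 7.32 CPM (SD, n = 4 each). Without B it was 1.78 (SE 0.31, adjusted p = 0.0198), 3.44-fold higher, and without A and B 1.49 (SE 0.24, adjusted p = 0.0272). By limma with quality weights the adjusted p was 0.0347 with all 8 libraries, and by DESeq2 0.0917. With neighbouring letters as a block, which no label gives, edgeR's adjusted p was 0.00457. Epor is expressed by endothelial cells as well as by red cell precursors, and per 100 embryonic globin counts it ranged from 1.003 (B) to 6.57 (C).

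The 2 globin-rich libraries, 1 of each group, carry neighbouring letters and differed in which of the genes they held more of. Library B had 3.07 times the CPM of A for Hbb-y (95% interval 2.87 to 3.30), 2.06 times for Hba-x (1.96 to 2.18), 1.52 times for Hbb-bh1 (1.48 to 1.57) and 1.43 times for Alas2 (1.25 to 1.65). It had 0.647 times the Nfe2 of A (0.4997 to 0.838) and 0.585 times the Epor (0.490 to 0.698). For Klf1 the ratio of 0.816 had an interval of 0.536 to 1.25, which holds 1. Of the 9 genes 6 were thus higher in B, 2 higher in A and 1 not distinguished at this depth, where 17.7% of all tested genes were higher in B and 18.7% higher in A by the same intervals. These intervals cover counting error only and compare 2 libraries, not the groups. Of 20 erythroid transcription factors and cofactors, 1 was higher in B than in A and 13 were lower, such as Tal1 at 0.316 times (0.283 to 0.353) and Gata1 at 0.546 times (0.429 to 0.695). Tal1, Gata1, Nfe2 and Epor were also lower in D, F and H than in any endocardial library. Their ratios thus go with the groups as well as with this pair. Of 20 red cell membrane genes 8 were higher in B and 7 lower. Slc4a1, the band 3 anion exchanger of the red cell membrane, was at 3.75 times (3.04 to 4.67).

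**Figure D4:**
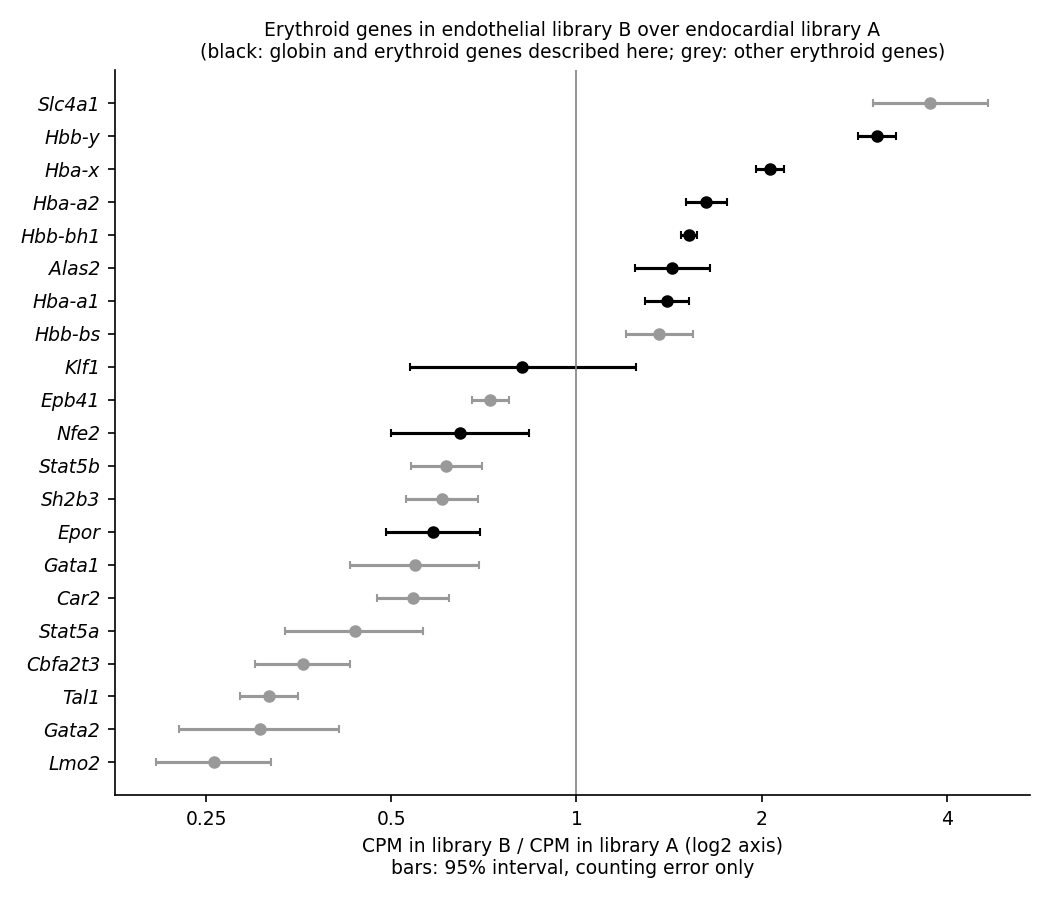
CPM in endothelial library B divided by CPM in endocardial library A (log2 axis) with 95% intervals for counting error, for the 9 genes (black) and other erythroid genes (grey). The 5 globins of the 9 genes, Hbb-bs, Alas2 and Slc4a1 lie to the right of 1, up to 3.75 for Slc4a1, and Nfe2, Epor, Gata1 and Tal1 lie to the left.

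The partners of these genes were examined in lists of erythroid genes. Of 20 tested erythroid transcription factors and cofactors 7 rose and 0 fell in the endocardial libraries by edgeR, where 1.42% of all tested genes rose and 1.16% fell, with a median log2 fold change of 0.70. Tal1, a factor shared by blood and endothelial progenitors, was at 108.96 to 134 CPM in the endocardial and 13.5 to 42.4 in the endothelial libraries (log2 fold change 2.34, edgeR adjusted p = 0.00485). Gata2, a factor of blood progenitors and endothelium, was at 19.2 to 40.3 CPM against 4.49 to 10.5 (2.03, adjusted p = 0.00975). Lmo2 and Cbfa2t3, cofactors in the same complexes, had log2 fold changes of 2.05 and 1.65. With any 1 of the 8 libraries left out these 4 genes were still called, and the list as a whole had 5 to 9 calls. Gata1, the red cell and platelet factor, was at 9.11 to 20.4 CPM against 2.15 to 11.1 and did not pass by edgeR with all libraries (1.54, adjusted p = 0.144). It passed with all libraries by DESeq2 (adjusted p = 0.0251) and limma (adjusted p = 0.0131), and by edgeR without B (2.26, adjusted p = 0.0134). Library B was the highest endothelial library for Gata1, at 11.1 CPM, so leaving it out raises the difference by construction.

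By edgeR with all libraries, genes that make heme or carry iron gave 0 calls. Of 16 genes of heme synthesis and mitochondrial iron 0 were called, where 2.58% of all tested genes were, with a median log2 fold change of 0.17. Without B 3 were called higher, where 1.64% of all genes were. They were Cpox and Fech, enzymes late in the pathway, and the mitochondrial transporter Abcb10. Of the endothelial libraries B was highest for these 3 genes too, so leaving it out raises their differences by construction. The 1.64% is no matched background for them. Of 13 genes of iron uptake, storage and heme breakdown and of 8 partners and relatives of Nfe2, 0 were called, with medians of 0.19 and 0.12. At an unadjusted p below 0.05 by edgeR there were 5, 2 and 1 genes of the 3 lists. All were higher in the endocardial libraries, as were 5.65% of all tested genes. DESeq2 called 1, 1 and 0 higher and limma 2, 1 and 0, where they called 2.4% and 2.97% of all genes higher.

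Downstream of the receptor, 3 of 15 genes of erythropoietin and stem cell factor signalling were higher and 0 lower (median 0.27), against the same 1.42% and 1.16% of all genes. Stat5a and Stat5b, which the receptor's kinase Jak2 activates, had log2 fold changes of 1.27 and 1.02, and Sh2b3, an adaptor that restrains Jak2, had 0.90, each in all 8 fits with 1 library left out. Of 20 red cell membrane, skeleton and enzyme genes 1 was higher and 0 lower (median 0.09). Without B, the highest library for 9 of them, 4 were higher (median 0.82), where 1.64% of all genes were. That share is no matched background here either. Without A 1 was higher (median -0.16), where 0.832% of all genes were. The gene called with all libraries was Car2, a carbonic anhydrase (1.38, edgeR adjusted p = 0.0143), which passed in 6 of the 8 fits with 1 library left out. Slc4a1 was at 50.4 CPM in B and 13.4 in A, and at 3.50 to 6.34 in the other 6 (-1.40, adjusted p = 0.548).

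**Figure D5:**
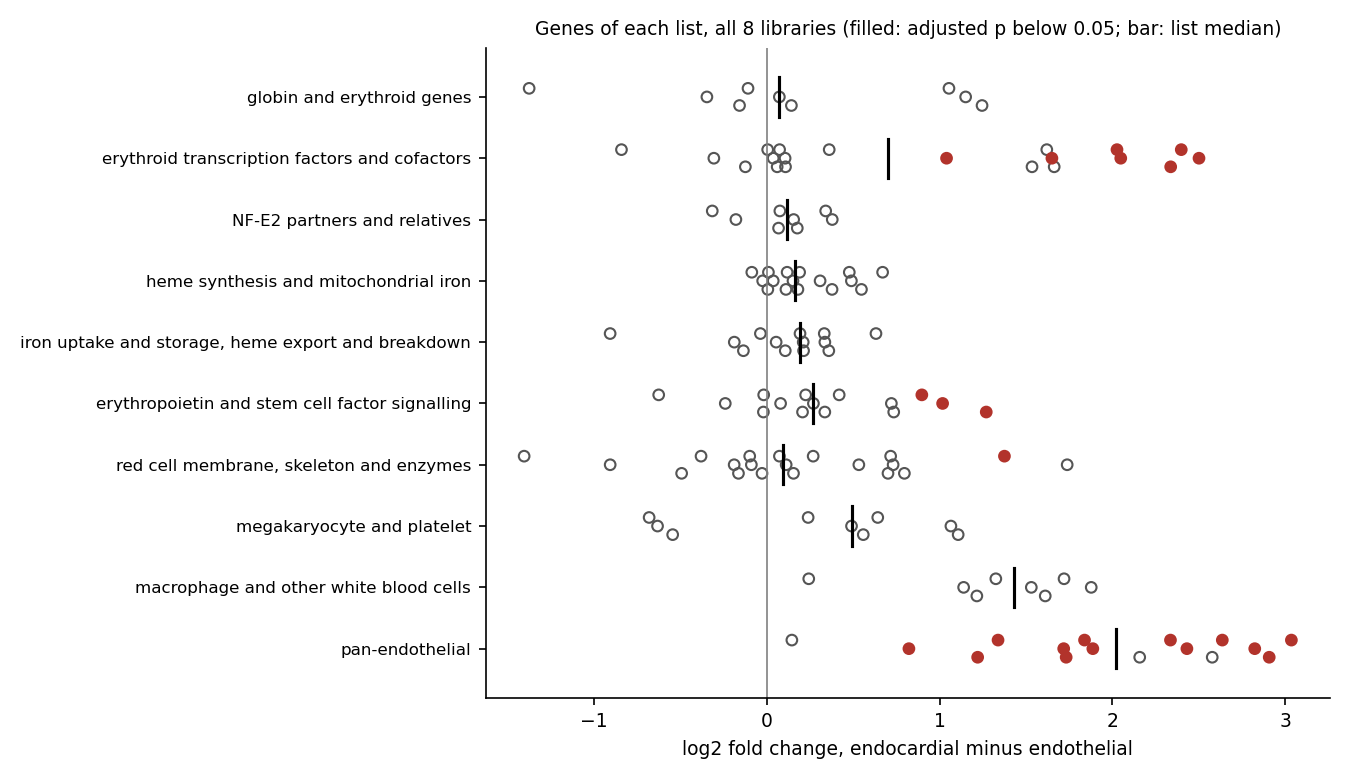
Log2 fold change (endocardial minus endothelial, all 8 libraries) of each tested gene of the 9 globin and erythroid genes and of the lists of erythroid, blood and endothelial genes, with filled points for an adjusted p below 0.05 by edgeR and a bar at each median. The calls lie among the factors, the signalling genes, Car2 and the pan-endothelial genes, and none of the 9 genes is filled.

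Platelet markers were highest in the same 2 libraries, and white blood cell markers in A. Of 9 tested megakaryocyte and platelet genes 5 had their highest value in A and 4 in B, as did 14.4% and 10.9% of all tested genes. All 8 tested white blood cell genes were highest in A, and B came second for 3 of them and was below E for 5. Summed, the platelet list was at 206 to 783 CPM in the endocardial and 73.6 to 583 in the endothelial libraries, and the white cell list at 32.9 to 282 and 18.4 to 97.5. Itga2b, the platelet integrin, also made by early blood progenitors, was at 306 CPM in A, 106 in C, 83.6 in E and 107 in G, and at 184 in B, 22.9 in D, 43.2 in F and 27.4 in H. Its log2 fold change was 1.11 (edgeR adjusted p = 0.548), where that of Pf4, another platelet gene, was -0.54 (adjusted p = 0.813). Pf4 was at 14.3 CPM in A, 1.88 in C, 3.98 in E and 3.24 in G, and at 16.4 in B, 1.75 in D, 10.1 in F and 5.26 in H. Of the 9 platelet genes 6 had a positive and 3 a negative log2 fold change (median 0.49). Csf1r, the receptor of macrophage growth factor, was at 118 CPM in A and 38.1 in B, and at 2.34 to 20.5 in the rest, and Ptprc, the common leukocyte antigen, at 35.8 and 13.0 against 1.08 to 5.70. Other white cell genes did not put B next to A, such as Spi1, a factor of myeloid cells, at 11.1 CPM in A, 6.34 in E and 3.92 in B, and Tyrobp, a myeloid signalling adaptor, at 23.8, 14.2 and 8.02. By edgeR 0 of either list was called, where 2.58% of all tested genes were. At an unadjusted p below 0.05 there were 0 platelet and 1 white cell genes, where 5.65% of all genes were higher. DESeq2 called 0 and 1 higher and limma 0 and 1, where they called 2.4% and 2.97% of all genes higher. With neighbouring letters as a block, edgeR called 2 and 5 higher, where 3.65% of all genes were. All 8 white cell genes had a positive log2 fold change (median 1.43), but the median was 0.09 without A. The part of both lists in the globin values was not tested.

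Cell type markers differed between the groups as well. All 16 pan-endothelial genes had a positive log2 fold change (median 2.02), so they were lower in the libraries labelled endothelial. By edgeR 13 of 16 pan-endothelial genes were called higher in the endocardial libraries and 0 lower, against 1.42% and 1.16% of all tested genes. Cdh5, the endothelial cadherin, was at 119 to 157 CPM in the endocardial and 14.5 to 17.1 in the endothelial libraries. Of 8 endocardial genes 4 were higher and 0 lower, against the same shares. Of 12 pluripotency genes, all with a negative log2 fold change (median -3.12), 2 were called lower by edgeR, 8 by DESeq2 and 10 by limma. By edgeR 4 were called lower without B and 0 without A. Of all genes 1.16%, 3.85% and 4.09% were called lower by the 3 tools, and 1.62% without B and 0.512% without A. Their summed level was 79.8 to 181.5 CPM in the endocardial and 186.8 to 1078 in the endothelial libraries, highest in F. In B the pluripotency sum was at 186.8 CPM and Cdh5 at 17.1. Library totals were 6677667 to 11369363 counts, with B the deepest. The part of these differences in the globin values was not tested.

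Genes whose profile over the 8 libraries was most like that of the summed embryonic globins were listed as a description, by Pearson r of log2 CPM. Outside the 9 genes those named here are Tmem176b (r = 0.986), Hectd3 (0.963), Hadha (0.958) and March2 (0.956). Tmem176b, a membrane protein gene, was at 61.2 CPM in B, 50.1 in A and 23.9 to 38.4 in the rest. Of the 9 genes Alas2 had an r of 0.976 with that sum, Klf1 0.792, Epor 0.717 and Nfe2 0.705. Hbb-y, itself in the sum, had 0.889, and 0.306 over the 6 libraries without A and B. For Klf1 the nearest genes were Abcf3 (0.964), Bnip2 (0.962), Commd7 (0.961), Rab5c (0.9498) and Polr1e (0.9495), and Klf1 had 0.910 with Nfe2 and 0.884 with Epor. The 8 points share 2 groups and the pair of globin-rich libraries, so these values order genes and show no relation of function.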

How the data were processed

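RNA of 8 libraries was extracted on silica columns and made into stranded mRNA libraries, per the labels' protocols. The authors deposited estimated counts for each gene symbol, and their processing used Salmon, DESeq2 and build mm10, per the submitters' processing notes. The roles and versions of these tools and the transcript set were not found in those notes. Salmon divides reads shared by transcripts through a model, which makes near-identical globin copies uncertain. Estimated counts, already whole as deposited, were rounded and passed through filterByExpr (at least 10 counts, total 15). TMM scaling and the robust quasi-likelihood F-test of edgeR 4.0.16 (R 4.3.3) followed, with no block, and Benjamini-Hochberg adjustment over 13817 genes. The alternatives were DESeq2 1.42.0, limma 3.58.1 voom with quality weights, other scalings and filters, a block of neighbouring letters and leaving out each library. Leaving out A and B together, and adding adult genes to the beta-type sum, were chosen after seeing the data. Means and SDs of CPM are over 4 libraries, whose totals were 6677667 to 11369363 counts. Coordinates are from GENCODE M21 on GRCm38.

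The 9 genes and the lists were chosen with earlier results of these data known. Named were all 9 genes, up to 4 genes of smallest p per list, a set of blood cell markers, all measured globins, and the 5 genes most like the embryonic globins and Klf1. A few genes that this rule names are not reported here. The fit was tested on simulated data before use. Ahsp, Hbb-b1 and Hbb-b2 were not analysed here.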

Additional observations from a re-analysis of the deposited data

Results flagged for a closer look

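A library was singled out where its gap to the nearest library of its group exceeded Dixon's 95% critical value for 4 samples. Chance meets this rule in about 1 of 20 groups if the values are normally distributed, which was not tested. The checks used CPM, percentages and ratios with no log scale, and their outcome holds for that scale alone. The rule was met in 9 of 26 checks, and 8 of the 9 were the endothelial library B. B was far above D, F and H for Hbb-bh1 at 1252 CPM, Hbb-y at 378 CPM, Hba-x at 486 CPM, Hba-a1 at 161 CPM, Hba-a2 at 199 CPM, Klf1 at 4.64 CPM, Alas2 at 56.5 CPM and the summed globins at 2571 CPM. The endocardial library A was far above C, E and G for Hbb-y at 123 CPM. The checks share libraries and genes and are not independent.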

How the results depend on the processing

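Of the 13817 genes, 356 passed the threshold by edgeR. DESeq2 called 860, limma 975, the fit with neighbouring letters as a block 1204, and the fit without A and B 227, and with 1 library left out the number was 135 to 457. Of the 9 genes 0 passed, 1 with limma, 2 with the block, which called 8.71% of all genes (Nfe2 at a log2 fold change of 1.49 and Epor at 1.28), 1 without A and B, and 0 to 2 with 1 library left out, the 2 without B. No label pairs the libraries, and the block of neighbouring letters, which pairs the globin-rich A and B, rests on their order alone. With 1 library left out, the log2 fold change ran from -0.24 to 1.49 for Hbb-bh1, -2.89 to 1.33 for Hbb-y, -0.84 to 1.26 for Hba-x, -0.98 to 1.64 for Hba-a1, -0.86 to 1.68 for Hba-a2 and -0.49 to 1.68 for Alas2, with the top value without B in each. Against the negative values with all libraries, limma gave 0.30 for Hba-x, 0.49 for Hba-a1 and 0.24 for Hba-a2, the block gave 0.30, 0.41 and 0.44, and leaving out A and B gave 0.77, 0.77 and 0.98. Klf1, Nfe2 and Epor kept a positive sign in all 18 alternatives. Per kb of transcript the mean beta-to-alpha ratio was 2.82 in place of 2.44 in the endocardial group. In the endothelial group it was 2.47 in place of 2.13. That change is arithmetic, as counts are divided by transcript length. The beta-type transcripts (613 and 633 bases) are shorter than those of Hba-x (801) and Hba-a1 (699), though longer than that of Hba-a2 (554). The cause of the shifts between fits was not tested. Klf1, at 7 to 58 counts a library, is limited by depth.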
